A study of Homo sapiens with 30 samples.

Results

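The comparison set LNCaP cells given 0.06 nM R1881 against LNCaP cells given 0.03 nM R1881, and so shows what a doubling of a low androgen dose changed in messenger RNA. Its 6 libraries, replicates 2, 3 and 4 at each dose, were chosen by the dose in their labels, out of 30 samples in the series. LNCaP is an established prostate cancer line that grew out of a lymph node deposit, responds to androgen and makes prostate-specific antigen. R1881, also called metribolone, is a synthetic androgen. Cells of both groups had been plated at 130000 per well in RPMI 1640 with 8% charcoal-dextran stripped serum, were left for 48 h and then had R1881 for 24 h before RNA was taken. The series asks how gene expression responds in the biphasic answer to androgen, across vehicle, low doses and 10 nM. LNCaP libraries with vehicle, 0.1 nM and 10 nM R1881 (3 each) entered the fit, where they shared the estimate of the spread, and serve below as neighbours in dose. The labels do not say whether replicates were separate cultures, so p-values measure the spread between these libraries, which may be technical.

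Androgens are steroid hormones that change transcription through a receptor in the nucleus, which binds DNA as a dimer at inverted repeats of a short half-site, often where factors such as FOXA1 and HOXB13 have opened the chromatin. In luminal prostate cells this turns on secretory genes such as the kallikreins, raises lipid synthesis and turns other genes down. Low androgen doses are known to bring LNCaP cells into division, and high doses to hold them back.

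Total counts ran from 30666460 to 39532215 in the 0.06 nM libraries and from 35102621 to 47166747 in the 0.03 nM libraries. Replicate 3 stood apart from replicates 2 and 4 on principal components at both doses, and mitochondrially encoded genes took 9.31% and 10.7% of its counts, against 6.14% to 7.47% in the other 4 libraries. Of the 18 luminal prostate markers, KLK3, KRT8, KRT18 and FOLH1 were among those at high levels, whereas DPP4 had 1.63 to 3.46 CPM and MSMB, NEFH, ALOX15B and TRGC1 were under 1 CPM in all 6 libraries. Levels here are CPM, read counts scaled to library size and not to gene length, so they are compared within a gene or a fixed list. Of the defining markers of other cells, TP63 and KRT15 of basal cells, CHGA of neuroendocrine cells and PTPRC of leukocytes had 0 counts in all 6 libraries. Over the whole lists, none of the 8 basal, 6 neuroendocrine, 8 fibroblast and smooth muscle and 1 leukocyte and endothelial members tested was called (1 basal and 1 neuroendocrine member lower at an unadjusted p under 0.05; with the replicate block described below, VWF alone was called, and lower). The basal markers summed to 80.7 to 96.5 CPM at 0.06 nM and 81.4 to 93.5 CPM at 0.03 nM. Most of it was ITGA6 (43.7 to 53.7 CPM over the 6 libraries) and DST (27.5 to 33.6 CPM). Neuroendocrine markers summed to 111 to 154 CPM at 0.06 nM and 125 to 156 CPM at 0.03 nM, most of it SYT4 (59.3 to 99.2 CPM over the 6 libraries) and ENO2 (39.3 to 48.1 CPM). Fibroblast and smooth muscle markers summed to 36.7 to 42.1 CPM at 0.06 nM and 39.5 to 48.6 CPM at 0.03 nM, most of it COL1A1 (20.1 to 32.6 CPM). The leukocyte and endothelial markers, nearly all of it von Willebrand factor (VWF), summed to 18.4 to 21.6 CPM at 0.06 nM and 20.6 to 26.6 CPM at 0.03 nM. In bulk libraries, fewer cells of a type and less RNA per cell cannot be told apart.

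The doubling moved many genes, most of them by little. Of 18403 genes tested, 773 were higher (4.2%) and 379 lower (2.06%) at 0.06 nM, 6.26% in all (edgeR quasi-likelihood test, two-sided, Benjamini-Hochberg adjusted p under 0.05). The median change was 1.25-fold among the genes called higher (log2 0.32) and 0.753-fold among the genes called lower (log2 -0.41), beside a median log2 change of -0.01 over all genes tested. A change of 2-fold or more was reached by 55 of the genes called higher and 34 of those called lower. Among called genes with a mean of at least 5 CPM at either dose, 11 of 715 higher and 1 of 291 lower reached it. The large called ratios thus lay mostly in scarce transcripts, where small changes could hardly be called. The median SE of the log2 change was 0.368 under 1 CPM and 0.0579 at 100 CPM or more. The share called climbed with level, 1.25% of genes under 1 CPM, 3.85% at 1 to 5 CPM, 6.71% at 5 to 20 CPM, 9.47% at 20 to 100 CPM and 10.6% at 100 CPM or more. Called or not, 13.2% of genes tested had all 3 libraries of 0.06 nM above all 3 of 0.03 nM. In 10.7% all 3 lay below.

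Libraries with the same replicate number moved together, which the fit above leaves out. In a fit with that number as a block 1791 genes were higher (9.73%) and 1135 lower (6.17%), all of the 1152 genes above among them. Values below come from the fit without the block unless another fit is named. Scaling to library totals alone gave 472 higher and 395 lower, so that 54.4% of the calls were rises, against 67.1% with TMM factors. Single libraries also bore on the counts. There were 426 higher and 156 lower without replicate 2 of 0.03 nM, 355 and 180 without its replicate 4, 303 and 131 without replicate 2 of 0.06 nM and 468 and 206 without its replicate 4.

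**Figure D1:**
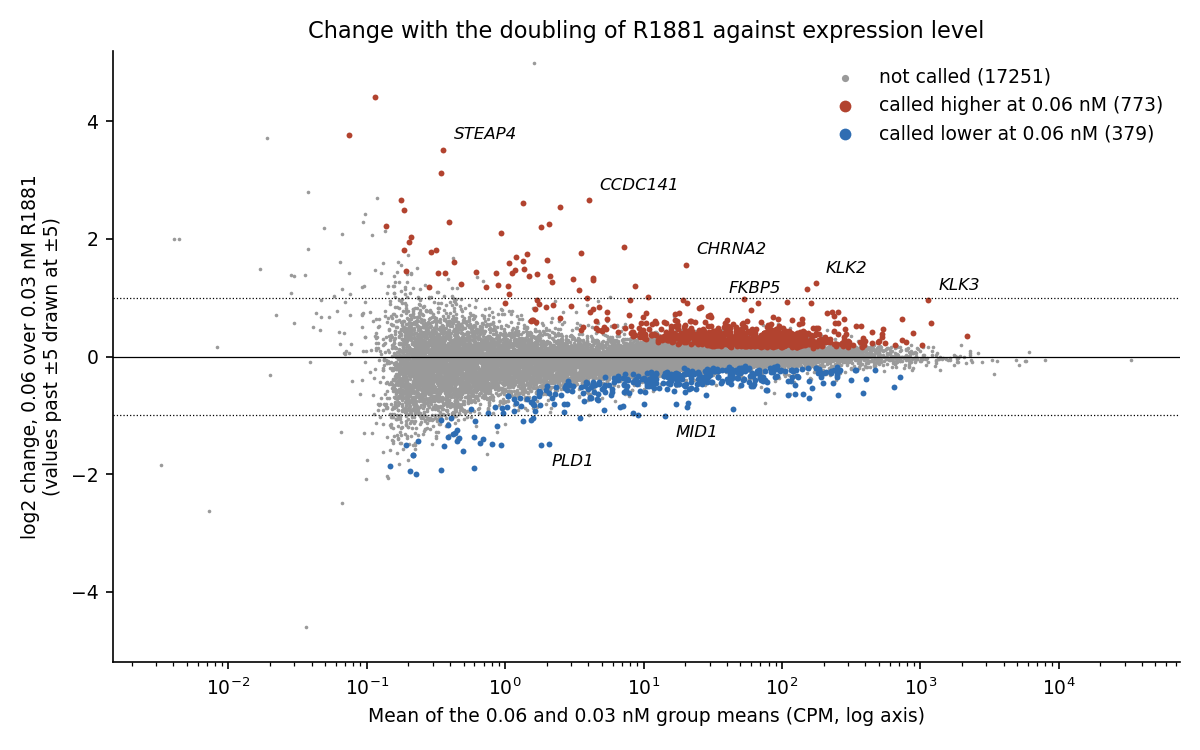
Each point is 1 of the 18403 genes tested, with the mean level over both doses in CPM (log axis) across and the log2 change, 0.06 over 0.03 nM R1881, up the page; red points are the 773 genes called higher, blue points the 379 called lower, and dotted lines mark 2-fold. Called genes at high levels lie inside the dotted lines, with KLK2 and FKBP5 above 2-fold and KLK3 just under it.

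Classical androgen-induced genes were higher at 0.06 nM almost throughout. Of 41 tested members of the list, 33 were higher and 0 lower, where 4.2% and 2.06% of all genes were, and the median log2 change of the members was 0.64. In all 3 same-numbered pairs 39 members were higher, against 24.6% of all genes. The gene lists here were chosen with earlier results of these data known, so their shares describe the lists and test nothing.

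KLK3 (the gene of prostate-specific antigen, ENSG00000142515.15, chr19:50854915-50860764, plus strand, GRCh38), stood at 1550, 1570 and 1390 CPM in replicates 2, 3 and 4 at 0.06 nM, against 672, 884 and 766 CPM at 0.03 nM. All 3 libraries at the higher dose lay above all 3 at the lower, and the change was 1.94-fold (log2 0.96 ± 0.084, SE, adjusted p = 3.02e-06). KLK2, a neighbouring kallikrein protease (ENSG00000167751.13, chr19:50861568-50880567, plus strand), had 262, 240 and 238 CPM at 0.06 nM and 89.0, 117 and 106 CPM at 0.03 nM. Its rise was 2.37-fold (log2 1.25 ± 0.082, adjusted p = 1.66e-07), again without overlap. The kallikreins are close paralogs, and how reads that match more than one gene were counted is not given in the sources used here.

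The promoter of KLK3 is shown because it holds the start of the androgen response element described near this gene. It spans 250 bases before to 50 after the start (RefSeq, GRCh38.p14, chr19:50854665-50854964, plus strand), with the half-site AGAACA, searched on both strands as AGAACA or TGTTCT, in capitals at -170.
KLK3: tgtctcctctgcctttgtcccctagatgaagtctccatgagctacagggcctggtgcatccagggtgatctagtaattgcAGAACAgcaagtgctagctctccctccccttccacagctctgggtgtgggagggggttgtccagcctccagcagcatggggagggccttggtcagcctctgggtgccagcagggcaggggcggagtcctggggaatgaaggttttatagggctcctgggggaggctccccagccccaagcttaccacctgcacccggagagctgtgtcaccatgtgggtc
The half-site was in 9.13% of the promoters of tested genes (11984 of 18390 symbols matched), in 10.9% of those of genes called higher (67 of 615) and in 14.3% of those of genes called lower (35 of 245), and in 14.9% of all 27305 promoters in the table. An exact inverted repeat of the half-site with 3 bases between was in 0 promoters of tested genes. A match describes these letters and is no evidence of binding.

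FKBP5, a co-chaperone of steroid receptors (ENSG00000096060.15, chr6:35573585-35728583, minus strand), had 220, 206 and 206 CPM at 0.06 nM and 95.9, 100 and 89.0 CPM at 0.03 nM. The gap between the doses was many times the spread within them, at 2.21-fold (log2 1.15 ± 0.067, adjusted p = 5.05e-08). TMPRSS2, a membrane serine protease (chromosome 21), had 294, 416 and 247 CPM at 0.06 nM and 154, 257 and 158 CPM at 0.03 nM. Here the groups overlap, because replicate 3 was high at both doses, and the change of 1.68-fold passed narrowly (log2 0.75 ± 0.20, adjusted p = 0.0347). The call of TMPRSS2 was lost without replicate 2 (log2 0.62, adjusted p = 0.141) or 4 (0.64, 0.167) of 0.03 nM and without replicate 2 (0.80, 0.0782) or 3 (0.52, 0.161) of 0.06 nM. It was also lost in a fit to the libraries compared alone (0.75, 0.0534). With the replicate block its adjusted p was 1.12e-07 at log2 0.76 ± 0.069.

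SLC45A3, a membrane transporter of prostate cells also known as prostein, had 346, 363 and 316 CPM at 0.06 nM and 206, 250 and 201 CPM at 0.03 nM, a rise of 1.56-fold (log2 0.64 ± 0.076, adjusted p = 7.55e-05) without overlap between the doses. CHRNA2, a nicotinic acetylcholine receptor subunit, reached 34.8, 28.8 and 26.4 CPM at 0.06 nM, against 9.95, 11.6 and 9.13 CPM at 0.03 nM, so that its level changed by more (2.95-fold) than the dose did. TRPM8, a cold-sensing cation channel, had 23.5, 31.2 and 26.2 CPM at 0.06 nM and 10.8, 18.7 and 13.5 CPM at 0.03 nM (1.88-fold, adjusted p = 0.00355). ELL2, a transcription elongation factor, rose 1.74-fold. The 8 members without a call were ALDH1A3, KLK4, SGK1, TPD52, LIFR and ORM1 at log2 0.53, 0.49, 0.46, 0.34, 0.21 and 1.6, and ADAMTS1 and STEAP2 at -0.00 and -0.16. With the replicate block ALDH1A3, KLK4, TPD52 and LIFR were called higher too, with adjusted p of 5.57e-08, 8.83e-08, 0.0131 and 0.0416.

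**Figure D2:**
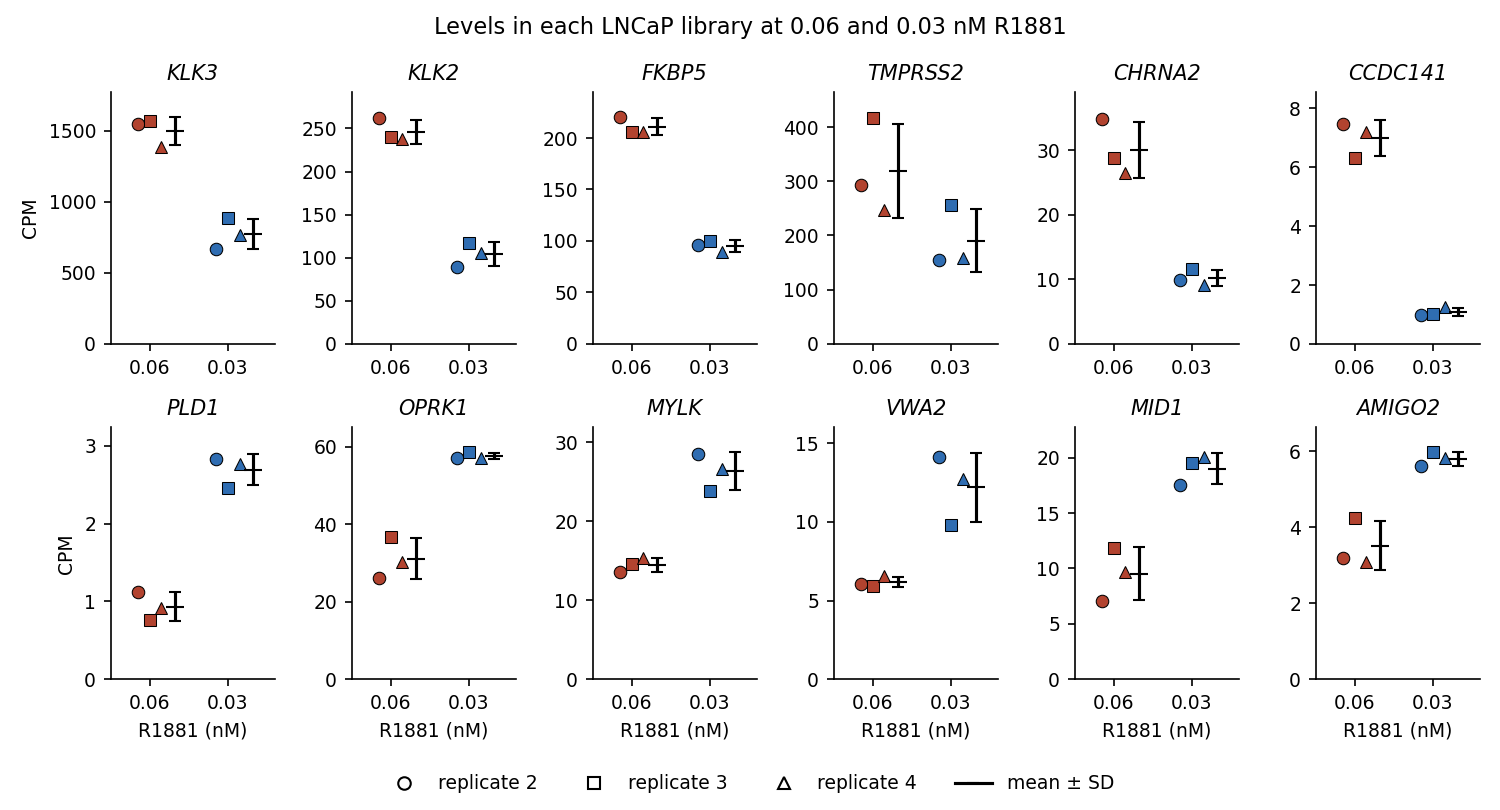
Levels in CPM of 12 genes in each library, 0.06 nM R1881 on the left and 0.03 nM on the right of each panel, with marker shapes for replicate numbers and bars for the mean ± SD of 3 libraries. The upper 6 genes were higher and the lower 6 lower at 0.06 nM, and TMPRSS2 is the panel in which the libraries of the doses overlap.

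Measured above the level in vehicle, KLK3 had an excess of 1400 CPM at 0.06 nM and 672 CPM at 0.03 nM, a ratio of 2.08 for a doubled dose. That ratio was 2.5 for KLK2, 2.05 for TMPRSS2 and 1.82 for SLC45A3. FKBP5 differed from these with a ratio of 4.11, since its excess was 153 CPM at 0.06 nM and 37.1 CPM at 0.03 nM. These ratios come from group means and carry no test.

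The 3 steepest rises among genes of at least 5 CPM at either dose belonged to genes that averaged under 5 CPM at 0.03 nM. CCDC141, which encodes a coiled-coil protein (chromosome 2), had 7.46, 6.32 and 7.18 CPM at 0.06 nM and 0.990, 1.03 and 1.26 CPM at 0.03 nM (6.34-fold, log2 2.66 ± 0.22, adjusted p = 1.82e-06). It overlaps TTN, the gene of the muscle protein titin and also higher (log2 2.54), on the same strand, so reads of one may have been counted for the other. F5, coagulation factor V, had 13, 11.4 and 9.56 CPM at 0.06 nM and 2.66, 4.29 and 2.64 CPM at 0.03 nM, a rise of 3.62-fold (adjusted p = 5.66e-06). HPGD, the enzyme that inactivates prostaglandins, had 5.53, 5.69 and 5.11 CPM at 0.06 nM and 1.7, 1.52 and 1.57 CPM at 0.03 nM (3.4-fold). Below these came the long noncoding RNA PSLNR (2.54-fold), the peptide transporter SLC15A2 (2.46-fold), PRAG1, a pseudokinase (2.3-fold), the pseudogene ZNF812P (2.01-fold) and EAF2, a partner of ELL elongation factors (2-fold). IGF1R, the receptor of insulin-like growth factors, had 62.2, 83.3 and 67.8 CPM at 0.06 nM and 28.8, 49.2 and 30.0 CPM at 0.03 nM (1.98-fold, log2 0.99 ± 0.18, adjusted p = 0.00281), and ST6GALNAC1, a sialyltransferase that makes the sialyl-Tn antigen, rose 1.95-fold.

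A further 10 called genes had a mean of at least 0.5 CPM at 0.06 nM and under 0.5 CPM at 0.03 nM, and 6 of them are named here. STEAP4, a metalloreductase, had 0.758, 0.691 and 0.524 CPM at 0.06 nM and 0.0707, 0.0572 and 0.0393 CPM at 0.03 nM (log2 3.52, 95% interval 2.40 to 4.64, adjusted p = 0.00116). DOCK8, an exchange factor for small GTPases, changed by log2 3.11, and TUBA3D, an alpha-tubulin whose near copy TUBA3E was also higher, by 2.61. SLC2A3, the glucose transporter GLUT3, changed by 2.29 and PGC, the pepsinogen progastricsin, by 2.10. The noncoding LINC00844 changed by 1.6 (adjusted p = 0.0343) and lost its call without replicate 2 (log2 1.48, adjusted p = 0.112) or 4 (1.57, 0.124) of 0.03 nM, without replicate 3 (1.15, 0.151) or 4 (1.72, 0.0578) of 0.06 nM and without all libraries numbered 3 (1.32, 0.068). These ratios rest on few reads.

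FOXA1 and HOXB13, factors known to open chromatin for steroid receptors, were not called. FOXA1 had 436, 451 and 431 CPM at 0.06 nM and 484, 454 and 452 CPM at 0.03 nM, which do not overlap (log2 -0.08, interval -0.18 to 0.03, adjusted p = 0.419). HOXB13 had 449, 450 and 420 CPM at 0.06 nM and 494, 485 and 475 CPM at 0.03 nM, also apart (log2 -0.14, adjusted p = 0.0986), and both the replicate block (adjusted p = 0.0173) and DESeq2 (0.043) called it lower. GRHL2, an epithelial transcription factor, rose 1.25-fold (adjusted p = 0.0223). GRHL2 lost its call without replicate 2 (log2 0.30, adjusted p = 0.0825) or 4 (0.26, 0.117) of 0.03 nM or replicate 3 (0.27, 0.0852) or 4 (0.30, 0.0814) of 0.06 nM.

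Androgen-repressed genes went the other way. This list, too, was chosen with earlier results of these data known. Of 22 tested members, 11 were lower and 0 higher, against 2.06% and 4.2% of all genes, with a median log2 change of -0.64. The replicate block called 17 lower and 0 higher, where it called 6.17% and 9.73% of all genes. The members were lower in all 3 pairs in 17 cases (23.4% of all genes). PLD1, a phospholipase D (ENSG00000075651.16, chromosome 3, minus strand), had 1.12, 0.757 and 0.917 CPM at 0.06 nM and 2.83, 2.46 and 2.77 CPM at 0.03 nM. It fell by 1.51 on the log2 scale (SE 0.20, adjusted p = 0.000204), with no overlap. MYLK, myosin light chain kinase, had 13.6, 14.6 and 15.4 CPM at 0.06 nM and 28.6, 23.8 and 26.7 CPM at 0.03 nM (log2 -0.86 ± 0.080, adjusted p = 5.66e-06). OPRK1, the kappa opioid receptor, had 26.2, 36.8 and 30.3 CPM at 0.06 nM and 57.2, 58.6 and 57.2 CPM at 0.03 nM (log2 -0.89 ± 0.12, adjusted p = 0.000222). ACKR3, an atypical chemokine receptor, had 90.0, 98.4 and 94.7 CPM at 0.06 nM and 122, 127 and 126 CPM at 0.03 nM, narrow groups well apart (log2 -0.41 ± 0.048, adjusted p = 6.26e-05).

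PLD1 had the steepest fall in that list, and its promoter is shown for comparison with that of KLK3 (RefSeq, GRCh38.p14, chr3:171810434-171810733, minus strand, written 5′ to 3′ along the gene). It holds the same half-site, in capitals at -196.
PLD1: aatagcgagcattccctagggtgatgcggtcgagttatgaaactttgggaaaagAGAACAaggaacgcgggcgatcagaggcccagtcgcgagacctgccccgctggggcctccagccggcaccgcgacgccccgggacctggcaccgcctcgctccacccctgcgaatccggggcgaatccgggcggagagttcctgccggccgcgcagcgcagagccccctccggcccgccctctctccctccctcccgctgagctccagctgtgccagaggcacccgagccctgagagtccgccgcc
So the half-site lay in the promoter of a gene that fell as well as in that of one that rose. It was in 5 of 28 promoters of the androgen-induced list and in 3 of 16 of the androgen-repressed list.

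Other falls among genes of at least 5 CPM came close to 2-fold. MID1, a microtubule-bound ubiquitin ligase (chromosome X), had 7.07, 11.8 and 9.70 CPM at 0.06 nM and 17.5, 19.5 and 20.1 CPM at 0.03 nM (log2 -1.01 ± 0.14, adjusted p = 0.000284). VWA2, a secreted protein with von Willebrand A domains, had 6.04, 5.92 and 6.55 CPM at 0.06 nM and 14.1, 9.81 and 12.7 CPM at 0.03 nM (log2 -0.99). The transcript LINC02614 changed by log2 -0.96, MAN1A1, a Golgi mannosidase, by -0.91, COLQ, the collagen tail of acetylcholinesterase, by -0.86, CDH26, a cadherin, by -0.84, GRIK1, a kainate receptor subunit, by -0.81, and SI, sucrase-isomaltase, by -0.81. AMIGO2, a cell adhesion protein, had 3.18, 4.24 and 3.09 CPM at 0.06 nM and 5.61, 5.98 and 5.82 CPM at 0.03 nM (log2 -0.74). PGM2L1, MECOM and DEGS2 changed by -0.72, -0.70 and -0.70. Several of these calls rested on single libraries: without replicate 2 of 0.03 nM the log2 change was -0.66 for CDH26 (adjusted p = 0.0933), -0.63 for PGM2L1 (0.0641), -0.55 for MECOM (0.15) and -0.68 for DEGS2 (0.0603). The other calls lost on leaving out 1 library were those of PGM2L1, MECOM and DEGS2 without replicate 4 of 0.03 nM (adjusted p = 0.0656, 0.124 and 0.0944), of CDH26, MECOM and DEGS2 without replicate 2 of 0.06 nM (0.0665, 0.0637 and 0.0677) and of PGM2L1 and MECOM without its replicate 3 (0.0521 and 0.121). Without replicate 4 of 0.06 nM the log2 change was -0.75 for CDH26 (0.0789), -0.69 for PGM2L1 (0.0519), -0.73 for MECOM (0.0846) and -0.67 for DEGS2 (0.0671). COLQ, GRIK1 and MYLK overlap genes on the other strand, whose reads cannot be told apart here because the strand setting of the counting is not given in the sources used here. The same holds for other genes named below, among them EGFR, CDK2 and ERBB2.

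Genes of DNA replication were higher at 0.06 nM in most cases. All 44 tested members had a positive log2 change, from 0.13 to 0.54, and all 44 were higher in each of the 3 pairs (24.6% of all genes were). Of these, 32 were called higher and 0 lower (4.2% and 2.06% of all genes were), with a median log2 change of 0.39. The replicate block called 43 higher and 0 lower, where it called 9.73% and 6.17% of all genes. Scaled to library totals, 16 were higher and 0 lower, at a median of 0.36. MCM3, a subunit of the replicative helicase (ENSG00000112118.20, chr6:52264009-52284881, minus strand), had 155, 152 and 163 CPM at 0.06 nM and 115, 125 and 115 CPM at 0.03 nM (1.32-fold, log2 0.40 ± 0.064, adjusted p = 0.0012). MCM5, another subunit, had 123, 119 and 126 CPM at 0.06 nM and 87.2, 94.8 and 89.9 CPM at 0.03 nM (1.35-fold, adjusted p = 0.000472). PCNA, the sliding clamp of DNA polymerases, had 198, 199 and 203 CPM at 0.06 nM and 145, 153 and 157 CPM at 0.03 nM (1.31-fold). In each of them the doses stood clear of one another. PRIM2, the large primase subunit, also rose 1.31-fold. The largest change in the list was that of CDC6, which loads the helicase at origins, with 96.7, 88.8 and 97.0 CPM at 0.06 nM and 64.3, 63.1 and 66.9 CPM at 0.03 nM (1.45-fold, adjusted p = 0.00285; named after its values were seen).

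Regulators of the entry into S phase moved in the same direction. Of 26 tested members, 13 were higher and 0 lower, where 4.2% and 2.06% of all genes were, with a median log2 change of 0.30. Scaled to library totals, 6 were higher and 0 lower. The replicate block called 18 higher and 1 lower (CDKN1A), where it called 9.73% and 6.17% of all genes. E2F1, an activator of S-phase genes (ENSG00000101412.13, chr20:33675683-33686404, minus strand), had 95.9, 89.2 and 94.3 CPM at 0.06 nM and 67.4, 67.1 and 68.8 CPM at 0.03 nM (1.37-fold, log2 0.46 ± 0.092, adjusted p = 0.00623). E2F2 had 21.8, 19.9 and 21.8 CPM at 0.06 nM and 13.9, 14.4 and 13.3 CPM at 0.03 nM (1.53-fold, adjusted p = 0.00288). Neither overlapped between the doses. CDC25A, the phosphatase that activates CDK2, rose 1.42-fold, CDK2 itself 1.37-fold and the pocket protein RBL1 1.28-fold. CCND1, cyclin D1, had 417, 455 and 410 CPM at 0.06 nM and 421, 451 and 376 CPM at 0.03 nM, within the spread (adjusted p = 0.823). CDKN1A, the inhibitor p21, had 119, 106 and 108 CPM at 0.06 nM and 141, 120 and 116 CPM at 0.03 nM (log2 -0.18, adjusted p = 0.246), and with the replicate block was called lower (adjusted p = 0.00872).

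MYC, a growth-promoting transcription factor, stood at the edge of the test. It had 214, 207 and 198 CPM at 0.06 nM and 185, 188 and 165 CPM at 0.03 nM, without overlap, a rise of 1.15-fold (log2 0.20 ± 0.058, adjusted p = 0.0463). The call was lost without replicate 2 (log2 0.23, adjusted p = 0.0715) or 4 (0.14, 0.209) of 0.03 nM, without replicate 2 (0.17, 0.209), 3 (0.20, 0.103) or 4 (0.22, 0.0681) of 0.06 nM, with library totals (0.18, 0.101) and in a fit to the libraries compared alone (0.20, 0.0978). With the replicate block it held (adjusted p = 0.00568).

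Promoters of MCM3 and E2F1 are shown as those of a replication gene and a regulator that rose together and carry the motif of E2F factors. The motif was searched as TTTGGCGC, TTTCGCGC and TTTCCCGC on both strands, and its letters are in capitals, at -174 and -4 in MCM3 (chr6:52284693-52284992, minus strand) and at -20 in E2F1 (chr20:33686336-33686635, minus strand), both from RefSeq on GRCh38.p14 and written 5′ to 3′ along the gene.
MCM3: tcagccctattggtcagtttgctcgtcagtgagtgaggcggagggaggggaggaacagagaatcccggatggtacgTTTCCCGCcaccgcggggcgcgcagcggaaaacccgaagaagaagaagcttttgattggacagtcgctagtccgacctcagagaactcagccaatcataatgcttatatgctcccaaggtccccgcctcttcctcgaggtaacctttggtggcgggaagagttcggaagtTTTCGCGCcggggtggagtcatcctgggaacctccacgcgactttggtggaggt
E2F1: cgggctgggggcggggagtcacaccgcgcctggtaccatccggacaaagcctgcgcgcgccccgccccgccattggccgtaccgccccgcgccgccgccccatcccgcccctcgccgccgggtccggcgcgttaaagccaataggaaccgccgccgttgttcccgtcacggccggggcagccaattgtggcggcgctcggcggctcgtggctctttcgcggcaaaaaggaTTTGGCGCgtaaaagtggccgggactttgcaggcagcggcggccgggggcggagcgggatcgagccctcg
The motif was in 20 of 37 promoters of the replication list (54.1%), in 6 of 21 of the E2F and G1/S list (28.6%) and in 3 of 30 of the mitosis list (10%), beside 4.54% of promoters of tested genes. Among genes called higher it was in 9.43% of promoters (58 of 615), and among genes called lower in 1.22% (3 of 245). E2F2, CDC25A, PCNA and RBL1 held it as well. The replication and E2F lists are made largely of known E2F targets, so this describes the lists.

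Genes of mitosis had positive changes throughout but were rarely called. Of 35 tested members, 2 were higher (5.71%, near the 4.2% of all genes) and 0 lower, though all 35 had a positive log2 change (median 0.33, from 0.17 to 0.46) and 33 were higher in all 3 pairs (24.6% of all genes). CDK1, the kinase that starts mitosis, had 298, 222 and 286 CPM at 0.06 nM and 218, 163 and 220 CPM at 0.03 nM. Replicate 3 was the lowest at both doses, and each library at 0.06 nM stood above its own number at 0.03 nM, by log2 0.45, 0.44 and 0.37. The adjusted p of CDK1 was 0.103 (log2 0.42 ± 0.15), and 9.0e-07 with the replicate block (0.42 ± 0.044). Over the list the block called 33 higher and 0 lower, where it called 9.73% and 6.17% of all genes. TOP2A, topoisomerase II alpha, had an adjusted p of 0.361, and 0.000106 with the block, and CDC20, an activator of the anaphase-promoting complex, 0.189, and 0.000343 with the block. CCNB1, cyclin B1, was at 127, 101 and 122 CPM at 0.06 nM and 115, 88.4 and 108 CPM at 0.03 nM, the least change of the list (1.12-fold). These 4 genes were chosen after their values were seen.

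ANLN, the cytokinesis scaffold anillin, and MAD2L1, a spindle checkpoint protein, were the called members. ANLN had 103, 83.4 and 104 CPM at 0.06 nM and 76.3, 62.8 and 72.2 CPM at 0.03 nM (1.37-fold, adjusted p = 0.0355), and MAD2L1 had 73.9, 67.9 and 77.6 CPM at 0.06 nM and 56.5, 48.1 and 61.9 CPM at 0.03 nM (1.32-fold, adjusted p = 0.0229). Both were uncalled when scaled to library totals (adjusted p = 0.0936 and 0.0867). ANLN was also uncalled without replicate 2, 3 or 4 of 0.03 nM (adjusted p = 0.0567, 0.104 and 0.0993) and without replicate 2 or 4 of 0.06 nM (0.151 and 0.131), at log2 changes from 0.38 to 0.52. MAD2L1 was uncalled without replicate 2 or 3 of 0.03 nM (0.0625 and 0.0746) or replicate 2 or 4 of 0.06 nM (0.0875 and 0.0968), at 0.31 to 0.41.

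Summed over the list, replication genes stood at 4010, 3620 and 4110 CPM at 0.06 nM and 3020, 2960 and 3060 CPM at 0.03 nM. Mitotic genes summed to 2670, 2090 and 2650 CPM at 0.06 nM and 2120, 1700 and 2080 CPM at 0.03 nM, so that replicate 3 of 0.06 nM lay above replicate 3 of 0.03 nM but below its replicate 2. Across the doses, the mean sum of replication genes was 2130 CPM in vehicle, 3010 at 0.03 nM, 3910 at 0.06 nM, 4350 at 0.1 nM and 2780 at 10 nM. Over the same doses that of mitotic genes was 1670, 1970, 2470, 2840 and 2340 CPM. Both mean sums were highest at 0.1 nM, and the doubling is part of their ascent. From 0.06 to 0.1 nM, however, 0 of 44 replication and 0 of 35 mitosis members were called. The library sums of these 2 doses overlapped, though each rose within its replicate number.

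**Figure D3:**
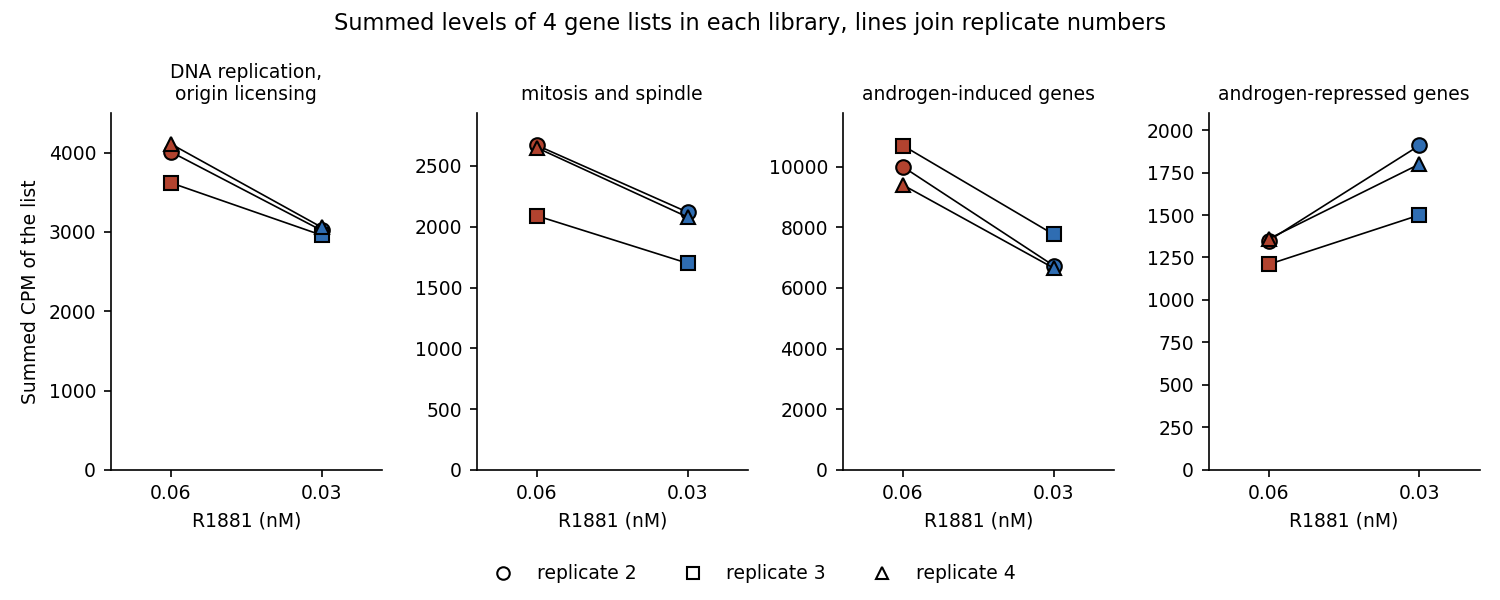
Summed CPM of 4 gene lists in each library, 0.06 nM R1881 on the left and 0.03 nM on the right of each panel, with lines that join libraries of the same replicate number. All 3 lines of the replication, mitosis and androgen-induced lists are higher at 0.06 nM and all 3 of the androgen-repressed list lower. Replicate 3 (squares) is the lowest at both doses for mitosis, at 2090 CPM at 0.06 nM and 1700 CPM at 0.03 nM.

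Ribosome biogenesis genes, which make and assemble ribosomal RNA, were higher in 14 of 30 tested cases and lower in 0. Of all genes 4.2% were higher and 2.06% lower. The median log2 change of the list was 0.19, and 7 were higher and 0 lower scaled to library totals. The replicate block called 21 higher and 0 lower, where it called 9.73% and 6.17% of all genes. RRS1 rose 1.24-fold, NOP56 and NOLC1 1.19-fold each, and DDX21, a nucleolar helicase, 1.19-fold to 403, 405 and 390 CPM at 0.06 nM, against 351, 348 and 308 CPM at 0.03 nM. DDX21 lost its call without replicate 2 of 0.06 nM (log2 0.24, adjusted p = 0.0504), as did NOLC1 (0.23, 0.0679). The changes in this group were small. These 4 genes were named for a small p, so that they lay clear of the spread follows from that choice.

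Many genes of lipid synthesis were also higher. In the cholesterol pathway 13 of 24 tested members were higher and 1 lower, where 4.2% and 2.06% of all genes were. The median log2 change was 0.24. The replicate block called 16 and 2, where it called 9.73% and 6.17% of all genes. HMGCS1, a synthase early in the pathway, had 116, 114 and 115 CPM at 0.06 nM and 96.3, 92.1 and 93.5 CPM at 0.03 nM (1.23-fold, log2 0.30 ± 0.047, adjusted p = 0.00118). SQLE, squalene epoxidase, rose 1.22-fold, and the doses did not overlap in either gene. The member that fell was TM7SF2, a sterol reductase, with 226, 252 and 238 CPM at 0.06 nM and 285, 291 and 270 CPM at 0.03 nM (0.846-fold, adjusted p = 0.0168).

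In fatty acid synthesis 8 of 21 tested members were higher and 0 lower (median log2 0.17), where 4.2% and 2.06% of all genes were. ELOVL7, an elongase of long-chain fatty acids, changed the most, with 85.7, 92.0 and 86.1 CPM at 0.06 nM and 41.7, 50.8 and 47.6 CPM at 0.03 nM (1.88-fold, adjusted p = 7.55e-05). ACSL3, which activates fatty acids at lipid droplets, rose 1.48-fold and ELOVL5, an elongase of polyunsaturated fatty acids, 1.39-fold. FASN, fatty acid synthase, had 2530, 2500 and 2320 CPM at 0.06 nM and 2000, 2100 and 1670 CPM at 0.03 nM (1.27-fold, adjusted p = 0.0131). It lost its call without replicate 4 of 0.03 nM (log2 0.25, adjusted p = 0.0513) or replicate 2 of 0.06 nM (0.32, 0.0713). The same held in the fit to the libraries compared alone (0.34, 0.0506). HMGCS1 and ELOVL7 stood clear of the spread, but they were named for a small p, so this describes them and not their groups.

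Sugar and glycan pathways gave isolated calls, to be read beside the 4.2% of all genes called higher and 2.06% lower, and the 9.73% and 6.17% with the block. In glycolysis 4 of 23 tested members were higher and 0 lower (9 with the block): SLC2A3, the hexokinases HK2 (1.32-fold) and HK1 (1.16-fold) and PFKFB3, which makes an activator of phosphofructokinase (1.24-fold). HK1 lost its call without any 1 of replicates 2 and 4 of 0.03 nM (adjusted p = 0.0641 and 0.17) and replicates 2, 3 and 4 of 0.06 nM (0.152, 0.0843 and 0.0832), at log2 0.15 to 0.24. In the synthesis of hexosamines, sialic acid and polyamines 4 of 17 were higher and 0 lower (7 and 1 with the block). UAP1, which makes UDP-N-acetylglucosamine, had 280, 309 and 282 CPM at 0.06 nM and 180, 212 and 193 CPM at 0.03 nM (1.49-fold, adjusted p = 2.43e-05). GNPNAT1 of the same pathway rose 1.2-fold. SMS, spermine synthase (1.26-fold, adjusted p = 0.0298), was uncalled without 5 of the 6 libraries in turn (adjusted p = 0.0577 to 0.137, log2 0.29 to 0.33; all but replicate 3 of 0.06 nM), and NANS, sialic acid synthase (1.19-fold, 0.0319), without 4 of them (0.111 to 0.159, log2 0.19 to 0.25; all but replicate 3 of 0.03 nM and replicate 4 of 0.06 nM). Of 27 Golgi glycosyltransferases and mannosidases, 3 were higher (ST6GALNAC1, GCNT1 and MGAT2) and 2 lower (MAN1A1 and FUT8), with 6 and 5 under the block. GCNT1, which starts core-2 branches on O-glycans, had 89.1, 89.3 and 78.2 CPM at 0.06 nM and 64.3, 65.5 and 65.5 CPM at 0.03 nM (1.31-fold). MGAT2 (1.13-fold, adjusted p = 0.032) was uncalled without any 1 of the 6 libraries (0.0556 to 0.121, log2 0.16 to 0.19).

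In the secretory pathway few genes were called without the replicate block. Over all genes 4.2% were called higher and 2.06% lower, and 9.73% and 6.17% with the block. Of 25 genes of the unfolded protein response and folding in the endoplasmic reticulum, 2 were higher (8%) and 0 lower (12 and 0 with the block, 1 and 0 scaled to library totals): EDEM3, a mannosidase of protein degradation, and CRELD2, a folding factor, at 1.18- and 1.16-fold. EDEM3 was uncalled without replicate 2 of 0.03 nM (log2 0.22, adjusted p = 0.0625) and without replicate 2 (0.24, 0.0599) or 3 (0.22, 0.0515) of 0.06 nM, and CRELD2 without any 1 of replicates 2 and 4 of either dose (0.067 to 0.0689, log2 0.21 to 0.22). Of 26 genes of COPII and COPI vesicles 3 were higher, KDELR2, LMAN1 and PREB, each 1.16-fold (11.5%), and 0 lower (5 and 0 with the block, 0 and 0 scaled to library totals). None of the 3 held its call through the omission of single libraries (uncalled adjusted p from 0.0726 to 0.156). Targets of ATF4 and tRNA synthetases had 0 of 29 members called by edgeR (1 higher and 1 lower at an unadjusted p under 0.05, and 1 and 1 with the block), and their median log2 change was 0.04.

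**Figure D4:**
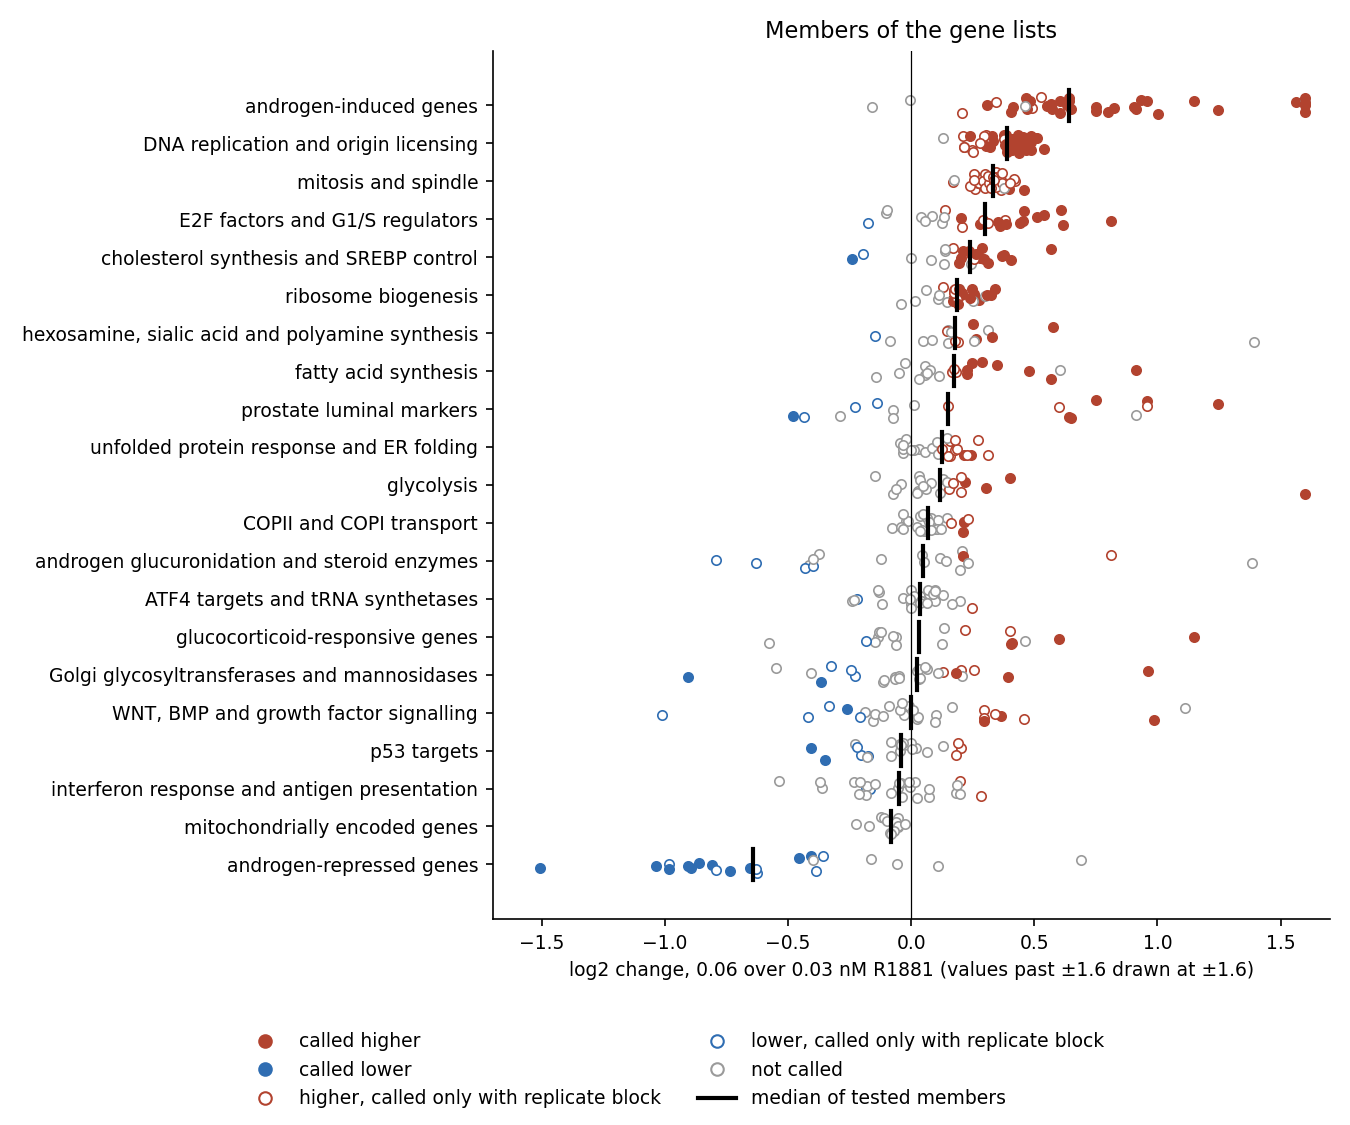
Each point is a tested member of a gene list, with its log2 change, 0.06 over 0.03 nM R1881, across, and 21 gene lists down the page; filled points were called, coloured rings were called only with the replicate block, grey rings were not called, and black bars are medians. The androgen-induced list has the highest median (0.64), followed by replication (0.39) and mitosis (0.33), and the androgen-repressed list the lowest (-0.64).

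Genes that respond to glucocorticoids were split. Of 18 tested members 4 were higher (22.2%) and 0 lower, where 4.2% and 2.06% of all genes were. The block called 6 and 1, where it called 9.73% and 6.17% of all genes. The 4 were FKBP5, the clock gene PER1 (1.52-fold), the transcription factor ZBTB16 (1.33-fold) and ERRFI1, an inhibitor of EGFR (1.32-fold). ERRFI1 lost its call without replicate 2 (log2 0.35, adjusted p = 0.0581) or 4 (0.38, 0.0572) of 0.03 nM. NR3C1, the glucocorticoid receptor, was near silent at 0.147, 0.658 and 0.262 CPM at 0.06 nM and 0.377, 0.686 and 0.472 CPM at 0.03 nM. FKBP5 and ZBTB16 are known to answer to androgen as well.

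Among p53 targets 0 of 22 were higher and 2 lower (9.09%), where 4.2% and 2.06% of all genes were. The block called 3 and 5, where it called 9.73% and 6.17% of all genes. TP53INP1, a stress-induced regulator of autophagy, had 279, 250 and 279 CPM at 0.06 nM and 404, 296 and 372 CPM at 0.03 nM (0.755-fold, adjusted p = 0.0133), and was uncalled without replicate 2 (log2 -0.31, adjusted p = 0.0767) or 4 (-0.38, 0.0641) of 0.03 nM or replicate 3 of 0.06 nM (-0.36, 0.0559). SESN1, a sestrin, had 105, 130 and 110 CPM at 0.06 nM and 139, 148 and 152 CPM at 0.03 nM (0.785-fold, adjusted p = 0.0192), and was uncalled without replicate 4 of 0.03 nM (-0.32, 0.0857) or replicate 2 (-0.29, 0.112) or 4 (-0.32, 0.0776) of 0.06 nM. Of 27 interferon response and antigen presentation genes 0 were called by edgeR (2 higher and 2 lower at an unadjusted p under 0.05, and 2 and 2 with the block), with a median log2 change of -0.05. None of the 13 mitochondrially encoded genes was called, with the block or without, or passed an unadjusted p of 0.05.

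In WNT, BMP and growth factor signalling, 3 of 28 tested members were higher (10.7%) and 1 lower (3.57%), where 4.2% and 2.06% of all genes were. The block called 7 and 5, and 9.73% and 6.17% of all genes. Beside IGF1R these were EGFR, with 114, 126 and 112 CPM at 0.06 nM and 86.5, 103 and 84.2 CPM at 0.03 nM (1.29-fold, adjusted p = 0.009), and the ligand WNT7B (1.23-fold, 0.0189). ERBB2, another receptor of the EGFR family, was the one that fell, with 229, 226 and 229 CPM at 0.06 nM and 295, 261 and 264 CPM at 0.03 nM (0.834-fold, adjusted p = 0.022). EGFR was uncalled without replicate 2 (adjusted p = 0.0508, log2 0.33) or 4 (0.0589, 0.31) of 0.03 nM, WNT7B without any 1 of replicates 2 and 4 of 0.03 nM and 2 and 3 of 0.06 nM (0.0785 to 0.106, log2 0.24 to 0.29), and ERBB2 without replicate 2 of 0.03 nM (0.111, -0.20) or any 1 of the 0.06 nM libraries (0.0553 to 0.0709, -0.27 to -0.26).

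Of 18 tested genes of androgen glucuronidation and steroid enzymes, 1 was higher (5.56%, near the 4.2% of all genes) and 0 lower. It was HSD17B4, a peroxisomal enzyme of fatty acid oxidation that also acts on steroids (1.16-fold, adjusted p = 0.0254; uncalled without any 1 library but replicate 3 of 0.03 nM, 0.0549 to 0.116, log2 0.16 to 0.22). The block called 2 higher and 4 lower, where it called 9.73% and 6.17% of all genes. UGT2B17, which inactivates androgen by glucuronidation, had 117, 48.4 and 102 CPM at 0.06 nM and 193, 63.7 and 158 CPM at 0.03 nM, and UGT2B15, its near-identical paralog, had 82.2, 20.6 and 63.5 CPM at 0.06 nM and 149, 34.5 and 106 CPM at 0.03 nM. Replicate 3 had far less of both at either dose, so the groups overlap and neither passed (adjusted p = 0.457 and 0.503). Within pairs UGT2B17 changed by log2 -0.72, -0.40 and -0.63 and UGT2B15 by -0.85, -0.75 and -0.75, and the block gave adjusted p of 1.57e-06 and 1.12e-10. Reads may have been split between these paralogs by the counting. The pair was chosen after its values were seen.

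Luminal markers were not of one direction. Of 17 tested, the block called 8 higher and 4 lower, where it called 9.73% and 6.17% of all genes. Without the block 5 were higher (29.4%, among them KLK2, KLK3, TMPRSS2 and SLC45A3) and 1 lower (5.88%), where 4.2% and 2.06% of all genes were. The one that fell was ACP3, prostatic acid phosphatase, with 98.8, 115 and 98.6 CPM at 0.06 nM and 152, 146 and 137 CPM at 0.03 nM (0.718-fold, adjusted p = 0.00235). FOLH1, prostate-specific membrane antigen, had 1190, 1430 and 1210 CPM at 0.06 nM and 1480, 1600 and 1410 CPM at 0.03 nM, which overlap (log2 -0.23, adjusted p = 0.0998; 0.000827 with the block). KRT8, a keratin of luminal cells, was level at 459, 487 and 452 CPM at 0.06 nM and 450, 471 and 466 CPM at 0.03 nM. FOLH1 and KRT8 are named as markers of the line.

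To place the doubling in the dose series, its log2 step was tested against the step below (vehicle to 0.03 nM) and the step above (0.06 to 0.1 nM, a dose ratio of 1.67 in place of 2). These steps share the 0.03 nM or the 0.06 nM libraries with the doubling. The step below starts from vehicle and so has no dose ratio to set beside that of the doubling. Steps are signed, so a gene that falls less in the doubling counts as having a higher step there. The step below called 1007 genes higher (5.47%) and 581 lower (3.16%), and the step above 197 (1.07%) and 54 (0.293%). Against the step below, 0 genes had a higher log2 step in the doubling and 10 a lower one (0.0543%), by edgeR at an adjusted p under 0.05 (241 and 550 at an unadjusted p under 0.05, and 2 and 21 by DESeq2). All 10 were genes induced by the first dose: KLK2 (difference of log2 steps -2.32 ± 0.14, adjusted p = 1.21e-07), KLK3 (-1.96 ± 0.14, 6.41e-07), and others, among them PLA2G5, TRPM8, ST6GALNAC1, SLC45A3, CHRNA2, ARHGEF26 and C19orf48P. With the replicate block 7 had a higher (0.038%) and 40 a lower (0.217%) step in the doubling.

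KLK3 averaged 103 CPM in vehicle, 774 at 0.03 nM, 1500 at 0.06 nM, 2090 at 0.1 nM and 3850 at 10 nM. KLK2 averaged 8.77, 104, 246, 375 and 848 CPM over the same doses, so that the first dose changed it by a larger ratio than any later step. ARHGEF26, a guanine nucleotide exchange factor, averaged 170, 289, 289, 278 and 263 CPM, reaching its plateau at 0.03 nM. PLA2G5, a secreted phospholipase, averaged 0.253, 2.28, 2.79, 3.34 and 2.83 CPM and was likewise not called for the doubling (adjusted p = 0.225 for PLA2G5 and 1 for ARHGEF26). FKBP5 followed another course, with 58.0, 95.1, 211, 480 and 2450 CPM, and MYC had 152, 179, 206, 198 and 110 CPM.

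Against the step above, 0 genes differed in either direction by edgeR (299 with a higher and 211 with a lower step in the doubling at an unadjusted p under 0.05; 3 and 0 by DESeq2). With the replicate block 4 had a higher log2 step in the doubling, each at an adjusted p of 0.0423: CCDC141 (difference 1.51), the thrombospondin THBS1 (0.80), the glutamate receptor subunit GRIN3A (0.70) and KLK2 (0.65). Among the genes that fell, OPRK1 averaged 99.3, 57.7, 31.1, 17.3 and 2.24 CPM from vehicle to 10 nM and MYLK 54.7, 26.4, 14.5, 9.85 and 5.87 CPM, with a lower level at each dose.

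**Figure D5:**
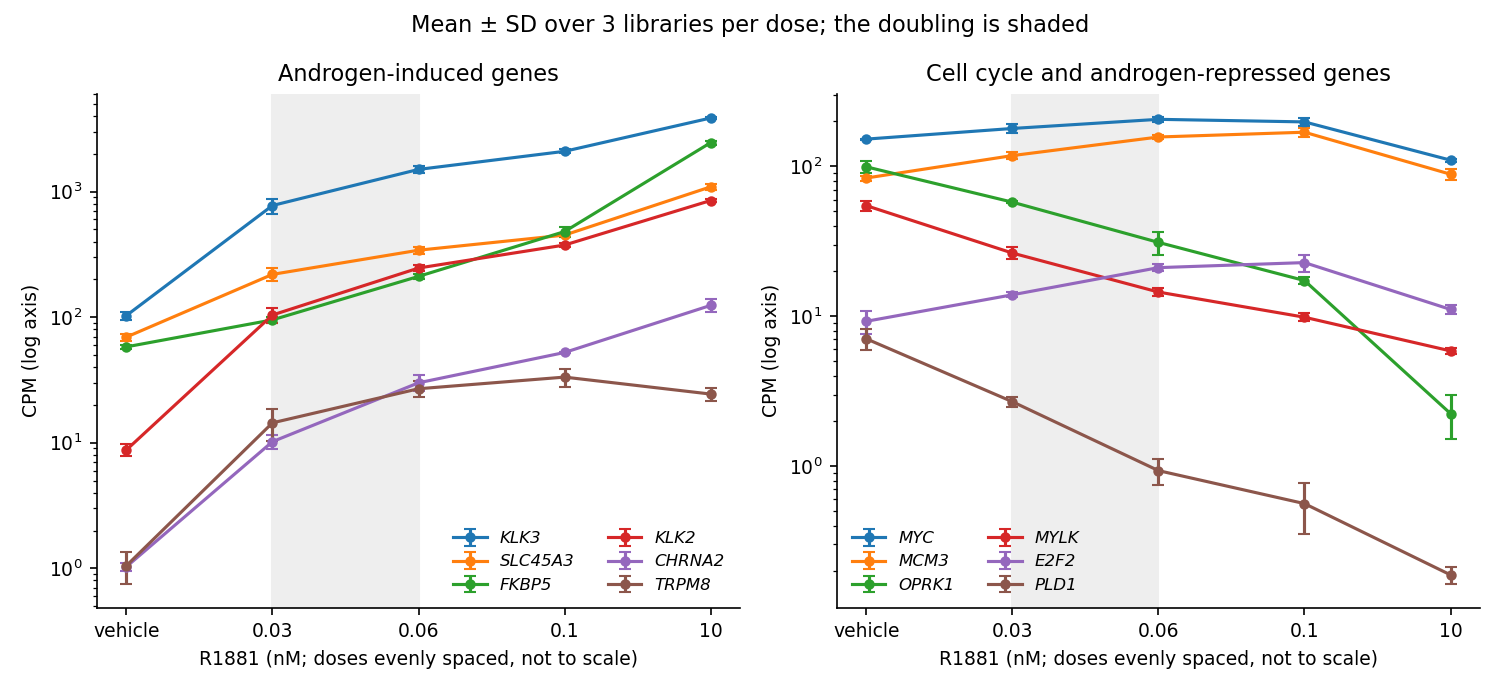
Mean level ± SD of 3 libraries in CPM (log axis) at vehicle and 0.03, 0.06, 0.1 and 10 nM R1881, with doses evenly spaced and the doubling shaded. On the left KLK3, KLK2, SLC45A3, CHRNA2 and TRPM8 climb most steeply before the shaded step and FKBP5 after it. On the right MYC, MCM3 and E2F2 are higher at 0.06 nM than in vehicle and lower again at 10 nM, while OPRK1, MYLK and PLD1 are lower at each dose than at the one before.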

How the data were processed

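The authors deposited whole-number read counts per gene for LNCaP libraries made with a stranded mRNA kit, per the labels' protocols. Trimmomatic 0.39, STAR 2.7.8a, DESeq2 1.36.0 and GRCh38 (hg38) stand in the submitters' processing notes; the counting program, its strand setting and its annotation are not given in the sources used here. A VCaP table with 15 columns that match no label was not used. Of 37843 gene IDs, 37731 matched a gene reference without their version and 28455 got a symbol. Gene positions, strands and types came from GENCODE on GRCh38.

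All 15 LNCaP libraries were fitted together in edgeR 4.0.16 (R 4.3.3, limma 3.58.1) with TMM factors, filterByExpr and 1 mean per group, and p-values came from the quasi-likelihood F test, adjusted by Benjamini-Hochberg over all genes tested. SE is the log2 change divided by the root of F. DESeq2 1.42.0, other scalings and filters, and the omission of libraries were alternatives. The fit was tested on simulated counts, drawn independently for each library, so that test does not cover libraries that share a replicate number.

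Deviations from the group means correlated at 0.49, 0.649 and 0.426 for same-numbered libraries (11045 genes) and at -0.482 to 0.144 otherwise. The replicate number was therefore taken as pairing the libraries in the counts of pairs and in the block fit. The main fit and its p-values leave this pairing out. The labels do not say what a number shares. Replicates differed beyond counting noise, with chi-square per degree of freedom of 4.6 to 50.7, so none was counted as a copy.

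The text names the 14 steepest called rises and falls (at least 5 CPM in a group, no overlap), 6 called genes under 0.5 CPM at 0.03 nM, up to 5 genes per step contrast, up to 4 called members per list by p, and a fixed set of hormone-response and growth genes. Some genes that meet the rule are not reported here. Other members were named after their values were seen. The members, the 26 gene lists (621 of 632 symbols matched) and the tests were chosen with earlier results of these data known. Promoter sequences came from RefSeq (GRCh38.p14).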

Additional observations from a re-analysis of the deposited data

How the results depend on the processing

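Genes called higher and lower (773 and 379) numbered 797 and 367 with RLE size factors, 472 and 395 with library totals, 1064 and 475 with DESeq2, 976 and 603 with no low-count filter, 795 and 428 with a stricter one, 587 and 270 in a fit to the libraries compared alone, and 1262 and 687 without the 5 libraries numbered 3. With the replicate block they were 1791 and 1135, and 1994 and 1497 when the block was fitted to the libraries compared alone. Leaving out 1 library gave 303 to 782 higher and 131 to 439 lower. The causes were not tested.

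Against the step from vehicle, 0 genes had a higher and 10 a lower signed log2 step in the doubling. These counts were 2 and 21 with DESeq2, 12 and 85 with no filter, and 7 and 40 with the replicate block. They were 18 and 66 with the block in the libraries compared alone, and 3 and 15 without the libraries numbered 3. Leaving out 1 library gave 0 to 1 higher, the 1 being without vehicle replicate 3, and 9 to 11 lower. Against the step to 0.1 nM (0 and 0) there were 3 higher with DESeq2, 13 higher and 6 lower with no filter, and 4 higher with the replicate block. There was 1 higher in the libraries compared alone, with or without the block, and 1 higher and 1 lower without the libraries numbered 3. No single library changed these counts.

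The alternatives were run gene by gene on the 95 genes that the naming rule gave, not on list members named after their values were seen. Of these 95, 63 kept their direction and their side of the threshold under every alternative run, and 29 of the 89 called lost the call under some (12 in the fit to the libraries compared alone). The 12 were FASN, TMPRSS2, MYC, LINC00844, MECOM, WNT7B, HK1, NANS, HSD17B4, NOLC1, PREB and MGAT2 (adjusted p from 0.0506 to 0.0978). Except for FASN, TMPRSS2 and MYC, the losses listed with the genes above leave this fit out. CCND1, which was not called, had log2 changes from -0.0297 (without replicate 4 of 0.03 nM, with -0.0084 without replicate 3 of 0.06 nM) to 0.0996 (without replicate 3 of 0.03 nM) as single libraries were left out. Among the 95, the replicate block ended no call and added those of HOXB13 and CDKN1A; list members outside them that it called, such as CDK1, KLK4 and FOLH1, are given with their lists. Depth limits the scarce genes: the median SE was 0.368 under 1 CPM and 0.0579 at 100 CPM or more.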

Other observations

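Calls were also counted by gene type. Among genes of at least 5 CPM at either dose, 704 of 10414 protein-coding genes were higher (6.76%) and 254 lower (2.44%), whereas 6 of 537 long noncoding genes were higher (1.12%) and 32 lower (5.96%). The median log2 change was 0.02 for coding and -0.08 for noncoding genes. The difference itself was not tested. Among the noncoding falls were DRAIC, with 16.3, 13.1 and 14 CPM at 0.06 nM and 20.3, 16.7 and 22.6 CPM at 0.03 nM (log2 -0.46, adjusted p = 0.0146), and PITX1-AS1 (-0.66, 0.00413).

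Several called genes outside the lists, all chosen after their values were seen, followed the courses described above. TERT, the catalytic subunit of telomerase, had 6.63, 5.96 and 7.18 CPM at 0.06 nM and 3.68, 4.55 and 4.48 CPM at 0.03 nM (log2 0.64 ± 0.16, adjusted p = 0.0209), and averaged 2.15 CPM in vehicle and 2.38 CPM at 10 nM, so that its level was high only at the doses between. RAD54L, a recombination repair protein, had the same shape, with 20.7, 33.3, 47.5, 54.0 and 29.7 CPM from vehicle to 10 nM, and so had THBS1, a matrix thrombospondin, with 3.05, 6.00, 9.79, 9.30 and 4.09 CPM. ATAD2, a chromatin-bound ATPase, kept climbing with 101, 157, 263, 363 and 467 CPM, and GREB1, a hormone-responsive cofactor, with 29.1, 55.9, 84.2, 109 and 206 CPM.

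PRKCA, protein kinase C alpha, averaged 29.7 CPM in vehicle, 22.8 at 0.03 nM, 30.4 at 0.06 nM, 48.2 at 0.1 nM and 129 at 10 nM, with its lowest mean at 0.03 nM, and rose with the doubling (log2 0.42, adjusted p = 0.0392). Among abundant genes GRB10, an adaptor of insulin and IGF receptors, had 526, 509 and 561 CPM at 0.06 nM and 792, 693 and 799 CPM at 0.03 nM (log2 -0.52, adjusted p = 0.0028). CSMD1, a large membrane protein, had 75, 89.1 and 93.8 CPM at 0.06 nM and 137, 132 and 137 CPM at 0.03 nM (-0.66, 2.88e-05).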
